A study of Mus musculus with 10 samples.

Results

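Syn1, Syngr3 and Cnih2, 3 genes of the synapse out of 19505 named genes measured, were followed across arrays of hypothalamic RNA from Old and Young mice. They were picked because their deposited signal was lower at the older age, so the difference between the ages is described for them here and not tested. Each of the 3 genes has 1 probe set in the deposited table, so keeping the brighter probe set of a gene left nothing out. The Old group held 5 hypothalamus samples from males of the inbred mouse strain C57BL/6J aged 138 weeks, and the Young group held 5 samples from C57BL/6J males aged 24 weeks. No genetic change or drug is given for either group, both were fed freely, and nothing in the labels states whether samples came from separate animals, so p-values measure only the spread between samples, which may be technical. RNA was measured on Clariom S Mouse arrays, per the labels, in which 1 probe set stands for a transcript.

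Chemical synapses pass a signal from one neuron to the next by fusing transmitter-filled vesicles with the presynaptic membrane, and receptors on the facing membrane read that signal. Synapsins are phosphoproteins on the outer face of synaptic vesicles that hold them in a reserve pool and release them when phosphorylated, and synaptogyrins are membrane proteins of the vesicle itself. Cornichon proteins accompany AMPA-type glutamate receptors out of the endoplasmic reticulum, and some of them stay with the receptor at the surface and slow its closing. Syn1 encodes synapsin I, Syngr3 encodes synaptogyrin 3, which binds the dopamine transporter, and Cnih2 encodes the cornichon homologue CNIH-2, so the genes stand for both sides of the synapse.

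The genes lie on different chromosomes, with Syn1 on chromosome X, Syngr3 on 17 and Cnih2 on 19. RefSeq promoter sequence of build GRCm38.p6 matched 2 of the 3 genes, Syn1 and Cnih2. The 250 bases before each start site are shown because the signals of these genes were lower together, and so that known neuronal promoter elements can be looked for. Syn1 is read on the minus strand at chrX:20920919-20921168 and Cnih2 on the minus strand at chr19:5098522-5098771. Capitals mark matches, on either strand, to any of 4 motifs.
Syn1: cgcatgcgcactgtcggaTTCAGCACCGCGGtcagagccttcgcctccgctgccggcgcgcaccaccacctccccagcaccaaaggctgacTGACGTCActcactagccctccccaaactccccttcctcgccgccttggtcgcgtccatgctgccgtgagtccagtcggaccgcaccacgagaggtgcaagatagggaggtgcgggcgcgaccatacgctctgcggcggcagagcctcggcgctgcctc
Cnih2: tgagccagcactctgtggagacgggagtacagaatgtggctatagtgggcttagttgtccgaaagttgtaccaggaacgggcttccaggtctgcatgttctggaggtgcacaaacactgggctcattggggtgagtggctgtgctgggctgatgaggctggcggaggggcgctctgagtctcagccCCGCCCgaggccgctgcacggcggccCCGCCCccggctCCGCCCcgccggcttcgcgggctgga
The first motif was the left part of the RE1 element that the neuronal repressor REST binds, whose letters are the first capitals of the Syn1 window with any base allowed at places 10 and 11. The others were TGACGTCA, the cyclic AMP response element, GGGCGG, the GC box, and TATAAA, the TATA box. The Syn1 window held 1 RE1 match, TTCAGCACCGCGG, and 1 cyclic AMP element. An RE1 match was present in 11 of 32851 RefSeq promoter windows of this length (0.0335%), and in 2 of the 136 windows of the synaptic lists described below, those of Syn1 and Nlgn1. The 136 windows belong to 99 genes, so some genes have more than 1, and shares are per window. The cyclic AMP element was in 1.55% of all windows. The Cnih2 window held 3 GC boxes, all on the opposite strand, a motif present in 32.7% of all windows and 52.9% of synaptic ones. No TATA box matched in either window, against 12.4% of all windows. The RE1 and cyclic AMP letters of Syn1 were therefore not in the Cnih2 window, and the 2 windows shared none of the motifs. G and C made up 68.0% of the Syn1 window and 65.6% of the Cnih2 window, where the median window had 52.4%. These matches describe letters and show no binding.

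The deposited values run from 5.0 to 12.97 and were read as log2 signal, although no source names the log base, and every fold here assumes base 2. For 97.9% of the 22206 probe sets the SD over the 10 arrays was the same, 1e-05 log2 within a tolerance of 1%, here called collapsed, and such values cannot show the size of an age difference. Genes called varying are the 276 whose SD over the arrays reached 0.01 log2. Syn1, Syngr3 and Cnih2 are among them, with SDs over the 10 arrays of 0.0849, 0.0761 and 0.0818 log2. How far the differences of varying genes were also shrunk in the deposited values is unknown. The peptides that define the hypothalamus were read at means of 9.68 log2 in Old and 9.06 in Young for Avp, 10.39 in Old and 10.32 in Young for Pmch, 9.49 in Old and 9.49 in Young for Oxt, and 8.99 in Old and 9.08 in Young for Hcrt, with no detection call to set them against. Oxt is not a varying gene, so its equal means do not show an unchanged level. Over all 22206 probe sets the array medians lay between 6.778 and 6.783 log2. Most of these probe sets are collapsed, so near-equal medians say little about how alike the arrays were.

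The signals of all 3 synaptic genes were lower in the Old hypothalamus, at 0.90 to 0.916 of the Young level, and in each gene every Old array lay below every Young array. Syn1 had 10.001, 10.055, 10.003, 10.045 and 9.939 log2 in Old 1 to Old 5, against 10.227, 10.158, 10.147, 10.133 and 10.140 log2 in Young 1 to Young 5. Old 5 was the lowest array, and Young 1 stood above the other Young arrays, which lay within a narrow band. The means were 10.01 ± 0.046 log2 in Old and 10.16 ± 0.038 in Young (SD, n = 5 each), a difference of -0.15 log2 (SE 0.025) or 0.90-fold. The gap between the highest Old and the lowest Young array was 0.077 log2, the widest among these genes.

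Syngr3 had 9.865, 9.941, 9.971, 9.946 and 9.861 log2 in Old 1 to Old 5, against 10.067, 10.002, 10.067, 10.090 and 9.990 log2 in Young 1 to Young 5. Old 1 and Old 5 were low and Old 3 came close to the Young range, while Young 2 and Young 5 were the low Young arrays. The means were 9.92 ± 0.050 log2 in Old and 10.04 ± 0.044 in Young (SD, n = 5 each), a difference of -0.13 log2 (SE 0.028) or 0.916-fold. Old 3 and Young 5 were separated by 0.019 log2, less than the SD of either group.

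Cnih2, the postsynaptic member, had 8.625, 8.763, 8.683, 8.715 and 8.626 log2 in Old 1 to Old 5, against 8.854, 8.812, 8.832, 8.836 and 8.789 log2 in Young 1 to Young 5. The same 2 Old arrays, Old 1 and Old 5, were lowest, and Old 2 was highest of its group. The means were 8.68 ± 0.059 log2 in Old and 8.82 ± 0.025 in Young (SD, n = 5 each), a difference of -0.14 log2 (SE 0.027) or 0.906-fold. The Old arrays covered a range of 0.14 log2 and the Young arrays 0.065 log2, and the gap between the groups was 0.026 log2. For each gene the order of the 2 ages was therefore the same and the age means lay further apart than the SD within either age.

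**Figure D1:**
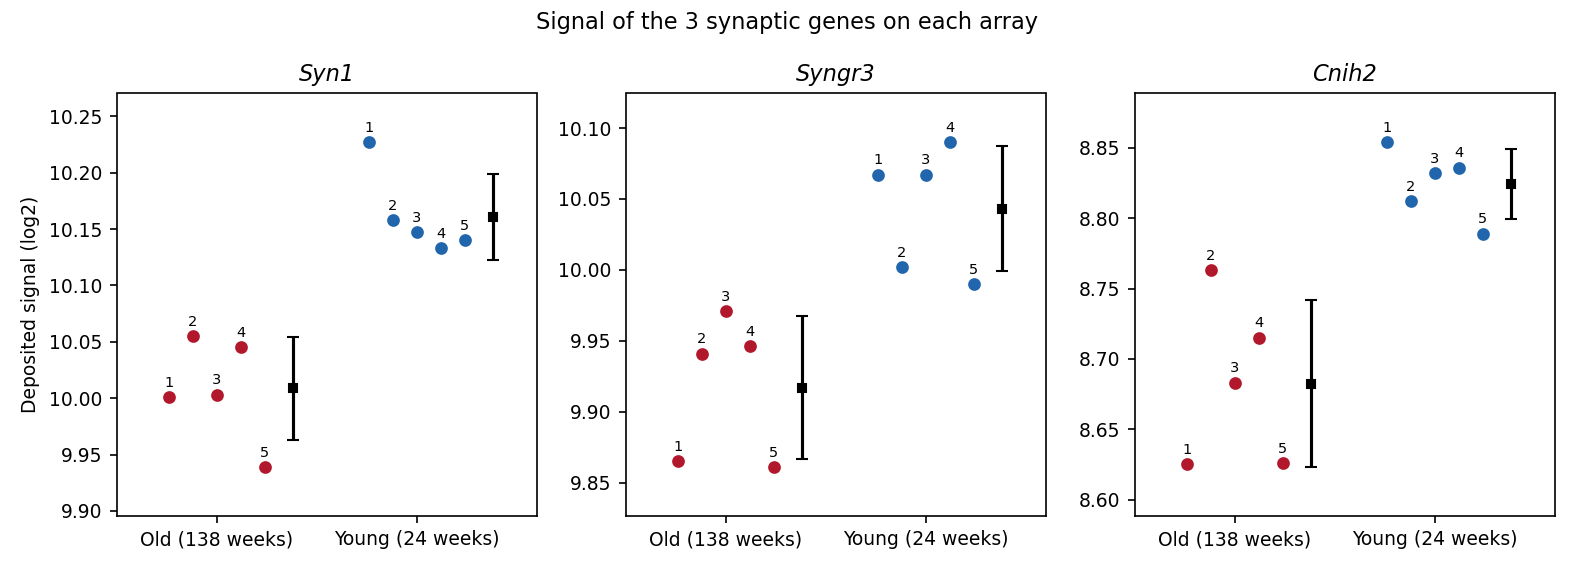
Deposited log2 signal (vertical axis, a different range in each panel) of Syn1, Syngr3 and Cnih2 on each of the 5 Old and 5 Young arrays; numbers are the replicate numbers, and squares with bars are the group mean and SD. In every panel the 5 Old points lie below the 5 Young points, by 0.077, 0.019 and 0.026 log2 at the closest.

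These genes were chosen by this contrast, so the following counts place them among other genes and support nothing. Groups did not overlap in 3 of the 3 genes, where 0.538% of all genes and 7.25% of varying genes were lower in Old without overlap and 20.7% of varying genes were higher without overlap. In the limma fit to all 19505 genes, 0 of the 3 had an adjusted p under 0.05 in the direction lower in Old, where 0.0308% of genes did. When only the 276 varying genes were fitted, 3 of 3 did, where 11.2% of the genes did. Among varying genes 145 had a lower and 131 a higher mean in Old, with a median difference of -0.02 log2. Syn1 had the 40th lowest difference of the 276, Cnih2 the 41st and Syngr3 the 49th, so these were moderate differences. The median of the 3 was -0.142 log2. Over all genes the median was -8.7e-08, a value set by the 19118 collapsed genes, so it is no readable background for the 3.

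**Figure D2:**
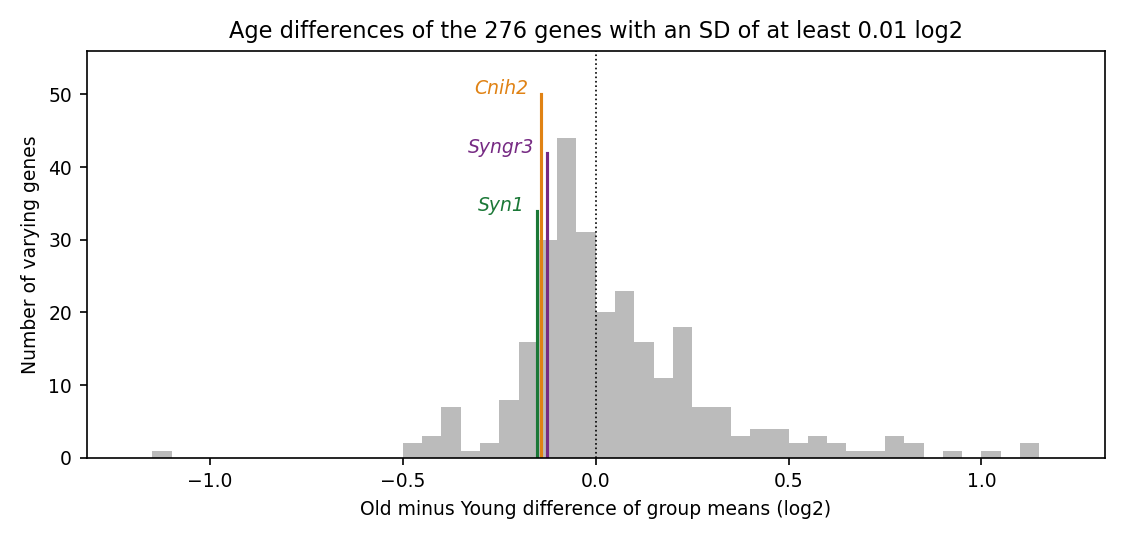
Histogram of the Old minus Young difference of group means (log2, horizontal axis) over the 276 varying genes, with the number of genes on the vertical axis; coloured lines mark Syn1, Syngr3 and Cnih2, and their heights carry no value. The lines stand close together at -0.152, -0.126 and -0.142 log2, on the lower side of a distribution whose median is -0.02.

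In RNA of a whole tissue, fewer cells of a type and less RNA per cell cannot be told apart. Of 13 general neuronal markers measured, such as Rbfox3, Map2 and Tubb3, 0 varied and 0 were called. But 12 of the 13 were collapsed, so these markers cannot show whether neuronal RNA differed with age. Of 15 markers of hypothalamic neurons 6 varied, with a mean per array from 9.27 to 9.45 log2 in Old and from 9.12 to 9.33 in Young. They were mixed in direction, with higher means in Old for Avp, Pmch and Npy and lower means for Hcrt, Sst and Trh. By limma over all genes 0 of the 15 passed, and among varying genes Avp was higher (0.618 log2, adjusted p = 0.00353) and Sst lower (-0.159 log2, adjusted p = 0.0272). The markers listed for cortex and hippocampus (9 measured) also had 0 varying members, and all 9 were collapsed, so they are equally unreadable. For striatum 4 of 8 measured markers varied (Drd1, Drd2, Ppp1r1b and Penk), and their mean per array ran from 7.76 to 8.28 log2 in Old and from 7.83 to 8.29 in Young. With that mean as a covariate the differences were -0.148 log2 for Syn1, -0.124 for Syngr3 and -0.14 for Cnih2. The striatal markers were high in Young 1, Young 2 and Old 3, and without these arrays the differences were -0.13, -0.146 and -0.137 log2. Young 5 stood apart in choroid plexus markers, of which 8 of 10 varied, with a mean of 8.34 log2. Every other array lay between 6.473 and 6.625 log2, with Young 3 at 6.625 close to Old 3 at 6.592. Without Young 3 and Young 5, the pair that an earlier analysis of these data also set aside, the differences were -0.164, -0.136 and -0.151 log2, slightly larger than with all arrays. Of 9 microglial markers 3 varied (Ctss, C1qa and C1qb), and their mean ran from 8.37 to 8.58 log2 in Old and from 7.94 to 8.04 in Young. By limma over all genes 2 of the 9 rose, Ctss and, by 0.00592 log2, C1qc, which is not a varying gene. C1qa and C1qb had an adjusted p of 0.0719 each in that fit. Among varying genes Ctss, C1qa and C1qb were all higher (limma adjusted p of 1.92e-06, 0.00146 and 0.00148). Of 11 astrocyte markers 6 varied, and their mean ran from 10.08 to 10.21 log2 in Old and from 10.19 to 10.25 in Young. Their directions were mixed: by limma over all genes Kcnj10 fell by 0.476 log2, Ntsr2 fell by 0.302 and Gfap rose by 0.443. In that fit Gja1, Aldoc and Slc1a2 did not pass. Among varying genes Gja1 was also lower (-0.142 log2, limma adjusted p = 0.0353), while Aldoc and Slc1a2 again did not pass. Of 5 markers of oligodendrocyte precursors 2 varied, and their mean was higher on every Old array (8.42 to 8.56 log2) than on any Young array (8.27 to 8.38 log2). The 2 went opposite ways and the other 3 were collapsed, so this mean does not show the list as a whole to be higher. Bcas1 rose by 0.471 log2 (limma adjusted p = 0.00481 over all genes and 7.91e-05 among varying genes). Gpr17 differed by -0.204 log2 (limma adjusted p = 0.126 over all genes and 0.00353 among varying genes). For comparison, 0.19% of all genes rose and 0.0308% fell, and 24.6% and 11.2% did in the varying genes alone. The part of these markers in the lower synaptic signals was not tested.

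The wider synaptic machinery was read through 12 lists of 137 genes other than these 3, of which 128 were measured here. The other family members gave no readable age difference: Syn2 and Syn3, 7 further genes of the synaptogyrin and synaptophysin family and the 3 other cornichon genes were all collapsed. Likewise 0 of 12 AMPA receptor auxiliary subunits, 0 of 20 synaptic vesicle proteins and 0 of 15 active zone genes varied. Of the 128 genes 6 varied, 121 were collapsed and 1 lay between, so 4.69% varied where 1.42% of all genes did. By limma over all genes 0 of the 128 had an adjusted p under 0.05 in either direction, and 9 had an unadjusted p under 0.05 (7.03%, against 6.82% of all genes), of which 2 varied. In the varying genes alone 0 of the 6 passed. In comparison, 0.0308% of all genes were called lower and 0.19% higher, and 11.2% and 24.6% in the varying genes alone. For the collapsed genes, whose largest difference was 1.7e-05 log2, a missed threshold says nothing about the transcript. REST and 5 of its corepressors, 6 genes in all, were collapsed too.

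Of the 6 varying synaptic genes, 5 had a lower mean in Old, and their median difference was -0.07 log2. Nlgn3, a postsynaptic adhesion protein that binds neurexins, came nearest to the threshold. It had 9.560, 9.614, 9.599, 9.622 and 9.587 log2 in Old 1 to Old 5, against 9.717, 9.644, 9.666, 9.687 and 9.619 log2 in Young 1 to Young 5. Old 4 lay just above Young 5, so the groups overlapped by that 1 pair. The difference was -0.07 log2 (SE 0.019), with a limma adjusted p of 0.412 over all genes and 0.0567 among varying genes.

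Gria1, which encodes the AMPA receptor subunit GluA1 that cornichons accompany, had 10.947, 10.998, 11.074, 11.070 and 11.091 log2 in Old 1 to Old 5, against 11.125, 11.119, 11.047, 11.137 and 11.133 log2 in Young 1 to Young 5. Young 3 fell inside the Old range, and the other Young arrays lay above it. Its difference was -0.08 log2 (SE 0.030, limma adjusted p = 0.688 over all genes and 0.107 among varying genes). Cplx1, a complexin that clamps the fusion machinery, had a wide spread, from 9.257 to 9.615 log2 in Old and from 9.412 to 9.693 in Young, and differed by -0.10 log2 (SE 0.082). Itsn1, an endocytic scaffold, differed by -0.06 log2 (SE 0.032), with Old 1 at 9.65 and every other array between 9.77 and 9.86 log2. Dlg2, the scaffold PSD-93, differed by -0.01 log2 (SE 0.044), and Prkacb, a catalytic subunit of the kinase that phosphorylates synapsin I, by 0.01 log2 (SE 0.010). Adjusted p for these 4 ran from 0.783 to 0.988 over all genes and from 0.188 to 0.871 among varying genes. Centring arrays on the median of the varying genes lowers every gene's difference alike, to a median of -0.067 log2 over all genes, and with that shift the value of Prkacb was -0.055 log2 and all 6 were below 0.

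**Figure D3:**
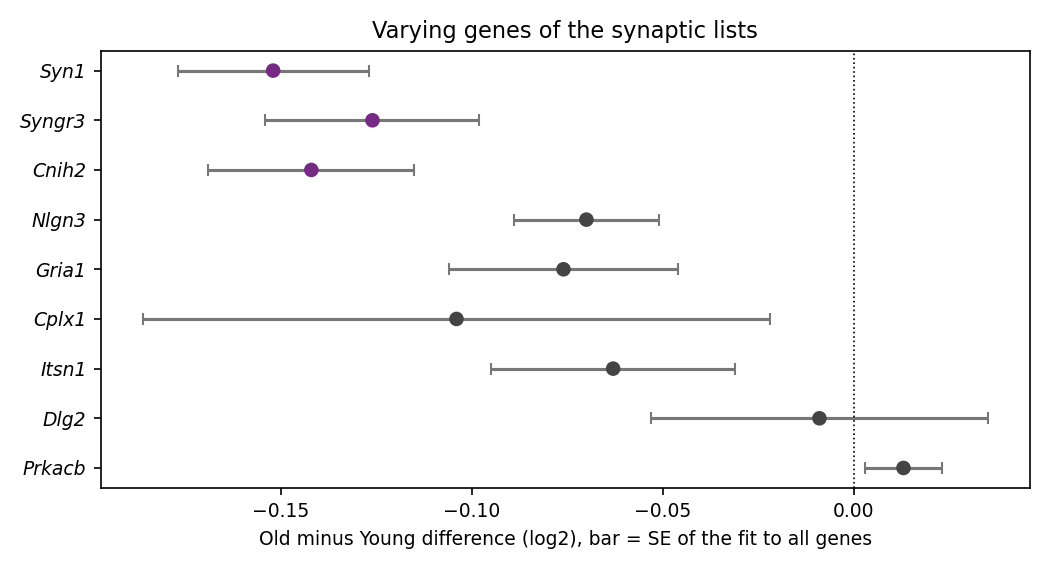
Old minus Young difference (log2, horizontal axis) of the 3 selected genes (purple) and the 6 other varying synaptic genes (grey); bars are the SE of the limma fit to all genes. Syn1, Syngr3 and Cnih2 lie at -0.152, -0.126 and -0.142 log2, Prkacb lies at 0.013, and the 5 other genes lie between -0.104 and -0.009.

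Whether the 3 genes also moved together among samples of the same age is a question the choice of genes did not use. Each array's deviation from the mean of its own age was therefore compared between genes over the 10 arrays, with arrays permuted within each age (14400 exact permutations, 2-sided, Benjamini-Hochberg over the 3 pairs). By Pearson r, but not by rank correlation, Cnih2 passed the threshold with both presynaptic genes, while Syn1 and Syngr3 showed no clear relation to each other. Syn1 and Cnih2 had a Pearson r of 0.76 (exact permutation p = 0.0149, adjusted p = 0.0446) and a Spearman rho of 0.62 (exact permutation p = 0.0618, adjusted p = 0.17). Syngr3 and Cnih2 had an r of 0.75 (exact permutation p = 0.0297, adjusted p = 0.0446) and a rho of 0.62 (exact permutation p = 0.113, adjusted p = 0.17). Syn1 and Syngr3 had an r of 0.46 (exact permutation p = 0.235, adjusted p = 0.235) and a rho of 0.26 (exact permutation p = 0.497, adjusted p = 0.497).

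The relation did not pass with ranks, and its call depended on single arrays. Without the 2 arrays farthest from the median of the first gene, r was 0.73 for Syn1 and Cnih2 (Young 1 and Old 5 left out), 0.61 for Syngr3 and Cnih2 (Old 5 and Young 5) and 0.22 for Syn1 and Syngr3 (Young 1 and Old 5). When single arrays were left out, r of Syn1 and Cnih2 stayed between 0.67 and 0.84, but the adjusted exact permutation p passed only without Young 2 (0.0417) or Young 4 (0.0333). It lay between 0.0531 and 0.0948 without Old 1, Old 2, Old 3, Old 4, Old 5, Young 1, Young 3 or Young 5. For Syngr3 and Cnih2 r stayed between 0.67 and 0.86, and the adjusted exact permutation p passed only without Old 3 (0.0406), with 0.0583 to 0.128 without any one of the other 9 arrays. Fewer arrays also allow fewer permutations, but why these calls were lost was not tested.

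Within the Old arrays alone r was 0.86 for Syn1 and Cnih2, 0.76 for Syngr3 and Cnih2 and 0.67 for Syn1 and Syngr3. Within the Young arrays alone it was 0.61, 0.86 and 0.17 for the same pairs, on 5 arrays each. Other varying genes were also correlated within age: over their 37950 pairs the median r was 0.07 and the 95th percentile 0.73, and 3.96% of pairs reached the highest value among the 3 synaptic genes. Old 1 and Old 5, the low arrays for Syngr3 and Cnih2, were the lowest of their age for 96 and 83 of the 276 varying genes, more than any other Old array. After centring each array on the median of the varying genes, an alternative chosen after seeing the data, r was 0.78 for Syn1 and Cnih2, 0.80 for Syngr3 and Cnih2 and 0.54 for Syn1 and Syngr3, with adjusted exact permutation p of 0.0194, 0.0194 and 0.184.

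**Figure D4:**
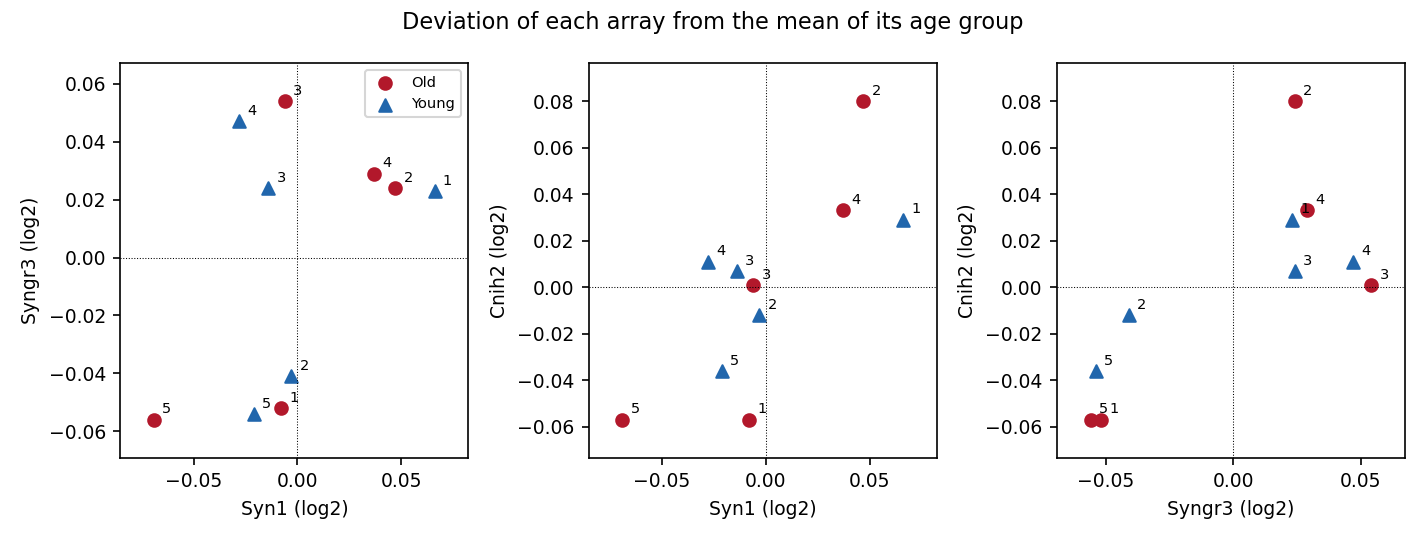
Deviation of each array from the mean of its age group (log2) for each pair of genes, with Old as red circles and Young as blue triangles and replicate numbers beside the points. Points rise together in the panels with Cnih2 (r of 0.76 and 0.75), where Old 1 and Old 5 sit lowest and Old 2 highest on the Cnih2 axis, and are scattered for Syn1 and Syngr3 (r of 0.46).

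The varying genes with the pattern most like each synaptic gene over all 10 arrays, age included, were other genes with lower signal in Old. These correlations describe 10 arrays that share a normalization and the same age difference. Syn1 was most like Ntsr2, a neurotensin receptor of astrocytes (r = 0.95), Cnih2 (0.95), Prrt1 (0.93) and Kcnj10, an astrocyte potassium channel (0.88). Cnih2 was most like Syn1, Prrt1 (0.94), Ap2m1, a subunit of the AP-2 adaptor of clathrin-mediated endocytosis (0.93), and Syngr3 (0.93). Prrt1 encodes a transmembrane protein of the AMPA receptor complex and stood near both genes. It had 9.14, 9.31, 9.25, 9.29 and 9.22 log2 in Old 1 to Old 5, against 9.54, 9.38, 9.45, 9.39 and 9.40 log2 in Young 1 to Young 5. Like Cnih2 it was lowest in Old 1 and highest in Old 2, and like Syn1 it was highest in Young 1, and its groups did not overlap. Its difference was -0.19 log2 (SE 0.040) or 0.877-fold.

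Syngr3 had a partly different set, led by L1cam, a neuronal cell adhesion molecule (r = 0.94), Tmem50b (0.94), Cnih2 (0.93) and Plppr2 (0.92). L1cam was also the gene most like Syngr3 within age (r = 0.89). Old 1 to Old 5 had 10.08, 10.19, 10.25, 10.25 and 10.14 log2 of L1cam, against 10.33, 10.26, 10.28, 10.34 and 10.25 log2 in Young 1 to Young 5. The L1cam difference was -0.11 log2 (SE 0.035), and the groups overlapped where Old 3 and Old 4 lay just above Young 5.

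Within age the nearest genes were mostly others, and 7 of the 9 distinct genes had a higher mean in Old. Syn1 deviated most like C1qb (r = 0.87), a chain of complement C1q made by microglia, Etv5 (0.86), Fcgr3, an Fc receptor of myeloid cells (0.84), and Laptm5, a lysosomal membrane protein of blood-derived and microglial cells (0.81). C1qa and Ctss, the other varying microglial markers, had a lower within-age r with Syn1, at 0.46 and 0.37. Over all 10 arrays the correlations with Syn1 were -0.63 for C1qb and -0.67 for Fcgr3. C1qb was higher in Old by 0.29 log2 (SE 0.048, limma adjusted p = 0.0719 over all genes and 0.00148 among varying genes). Fcgr3 rose by 0.50 log2 (SE 0.074, limma adjusted p = 0.0408 over all genes and 0.00061 among varying genes). C1qb had 8.25, 8.38, 8.24, 8.26 and 8.11 log2 in Old 1 to Old 5, against 8.03, 7.97, 7.99, 7.90 and 7.90 log2 in Young 1 to Young 5. Its lowest Old array, Old 5, and its highest Young array, Young 1, were also the lowest Old and highest Young arrays of Syn1, although the age means of the 2 genes ran in opposite directions.

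Cnih2 deviated within age most like Bbs9 (r = 0.88), a subunit of the ciliary BBSome, Ly6c1, an endothelial surface protein (0.86), Psat1, an enzyme of serine synthesis (0.82), and Laptm5 (0.79). Syngr3 followed L1cam, Pcdhb15, a beta protocadherin (0.85), Bbs9 (0.79) and Laptm5 (0.79). Laptm5 was thus among the nearest genes of all 3. It differed by 0.18 log2 (SE 0.068, limma adjusted p = 0.671 over all genes and 0.0604 among varying genes). Bbs9 rose in Old by 0.23 log2 (SE 0.035, limma adjusted p = 0.0443 over all genes and 0.00141 among varying genes). Pcdhb15 rose by 0.36 log2 (SE 0.045, limma adjusted p = 0.0132 over all genes and 0.000246 among varying genes).

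Among the cell type lists, the mean of the varying microglial markers had a within-age r of 0.72 with Syn1, 0.65 with Cnih2 and 0.37 with Syngr3. The 3 of 8 endothelial markers that varied (Slc2a1, Ly6c1 and Vwf) had 0.58, 0.79 and 0.37 with Syn1, Cnih2 and Syngr3, and their mean was highest in Old 2 at 8.998 log2, with every other array between 8.54 and 8.633 log2. Tcf7l2, the varying 1 of 6 thalamic markers, ran from 8.989 to 9.575 log2 in Old and from 9.088 to 9.774 in Young. It had an r of 0.62 with Syn1, 0.59 with Syngr3 and 0.45 with Cnih2. The other 5 thalamic markers were collapsed, so a single gene does not show a pattern of the list. The other cell type lists with varying members, among them striatum (0.43 with Syn1, 0.25 with Syngr3 and 0.16 with Cnih2) and choroid plexus (-0.21, -0.42 and -0.32 in the same order), stayed between -0.6 and 0.6. Nearest to that limit were oligodendrocytes (0.58) and oligodendrocyte precursors (0.56), both with Syngr3. The part of these cell types in the within-age pattern was not tested.

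**Figure D5:**
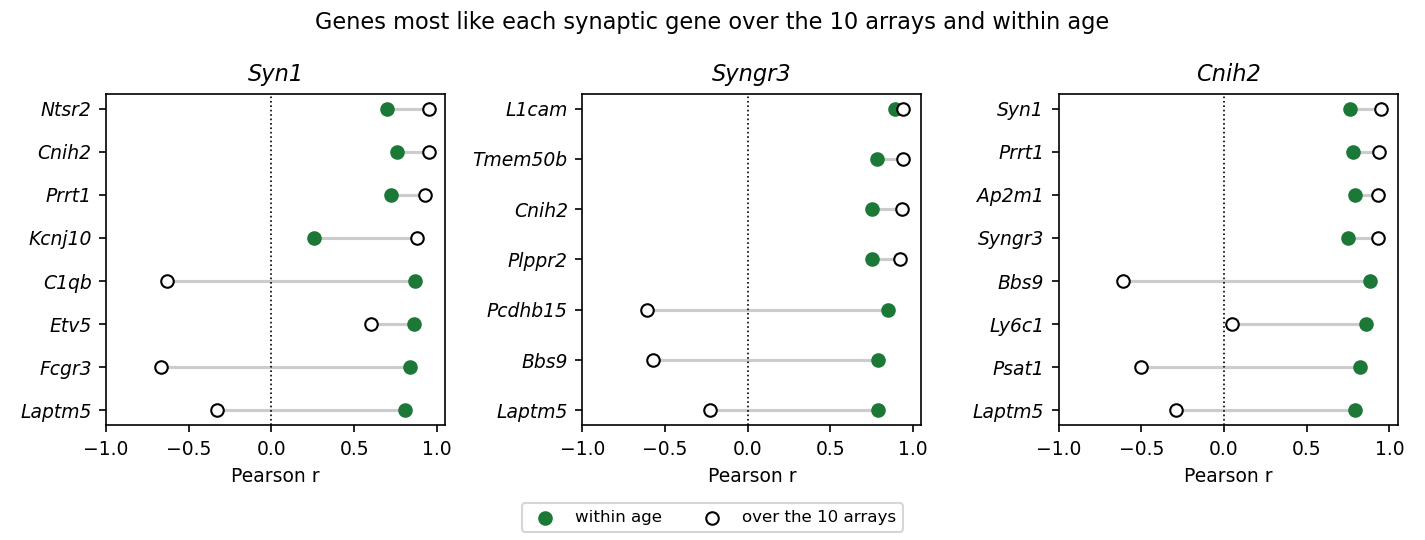
Pearson r (horizontal axis) of each synaptic gene with the varying genes nearest to it, over the 10 arrays (open circles) and within age (filled circles). The upper genes of each panel are positive on both measures, while C1qb, Fcgr3, Pcdhb15, Bbs9 and Psat1 are positive within age and at or below -0.5 over all arrays.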

How the data were processed

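Per the labels' protocols, 100 ng of total RNA went into each biotin labelling reaction. The deposited log2 values, 1 per probe set and array, were made by the authors; the sources used here do not give the background correction, normalization or summarisation, and the log2 scale was read from the values. Gene names came from the platform annotation: 19572 probe sets have 1 gene symbol, 0 have several and 2634 have none here. All 19572 gene identifiers matched RefSeq (GRCm38.p6), with 0 symbols changed. The probe set with the highest mean was kept per gene.

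Old was compared with Young over all 19505 genes with limma 3.58.1 (R 4.3.3; lmFit, eBayes, Benjamini-Hochberg, threshold 0.05), and over the 276 varying genes alone. SEs are limma's; in the fit to all genes the collapsed genes set the prior SD (7e-06 log2, 1.04 degrees of freedom), which lowers them slightly. Within-age correlations used exact permutations (Python 3.11.15, scipy 1.17.1). Both procedures were tested on simulated data. Precision is limited by having 5 arrays per age.

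The 3 genes, the lists and the tests were chosen with earlier results of these data known. Named genes are the 3, every varying gene of the synaptic lists, the 4 genes most like each over the arrays and within age, and the varying markers of cell type lists with a within-age r of at least 0.6 in size. Genes named as examples of collapsed lists or as tissue markers, and Nlgn1, fall outside this rule and were chosen after their values were seen. Alternatives covered normalization, filters, priors and arrays left out. The labels do not say that a replicate number shared by Old and Young marks a common batch, and the sample descriptions number the Old samples differently from their titles.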

Additional observations from a re-analysis of the deposited data

Results flagged for a closer look

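For each of the 9 varying synaptic genes the lowest or highest array of each age was compared with its nearest neighbour, 18 groups in all, and in 2 groups that gap exceeded 0.71 of the group's range. Chance gives about 1 in 20 groups. Syn1 was highest in Young 1, at 10.227 log2 against a nearest value of 10.158, a gap of 0.738 of the range; without Young 1 its age difference was -0.136 log2. Gria1 was lowest among Young arrays in Young 3, at 11.047 log2 against a nearest value of 11.119, a gap of 0.799 of the range.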

How the results depend on the processing

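The differences of Syn1, Syngr3 and Cnih2 stayed below 0 under all 18 alternatives run for each. They lay between -0.164 and -0.13, -0.146 and -0.113, and -0.162 and -0.128 log2 in 17 of them. The exception was centring arrays on the median of the varying genes, chosen after seeing the data, which gave -0.22, -0.194 and -0.209 and lowers all genes alike (a median of -0.067 over all genes). Removal of 1 array at a time gave -0.164 to -0.135, -0.14 to -0.113 and -0.162 to -0.128. The within-age correlations lost their call with Spearman's rho (0.62 for both pairs with Cnih2) and without Young 3 and Young 5 (r of 0.76 for Syn1 and 0.72 for Syngr3, each with Cnih2). Their r without 1 array was 0.67 to 0.84, 0.67 to 0.86 and 0.23 to 0.63 for Syn1 with Cnih2, Syngr3 with Cnih2 and Syn1 with Syngr3. Over all genes 37 were higher and 6 lower in Old. Quantile normalization gave 154 and 6464, with 37 lower among the other synaptic genes; 6472 of these calls were collapsed genes, whose median SD it raised to 0.00074 log2, and rises were 2.33% of calls against 86% as deposited. The varying genes alone gave 68 and 31, an adjusted p under 0.01, stricter by construction, gave 21 and 2, the fit without Young 3 and Young 5 gave 22 and 2, and a trended robust prior gave 10 lower. With 1 array removed at a time, 25 to 37 genes were higher in Old and 4 to 9 lower. Except where a cause is given, the cause was not tested. The other synaptic genes had 0 calls in either direction under every alternative but quantile normalization. With the replicate number as a block 10 genes were higher and 1 lower, and the differences of the 3 genes were the same (-0.152, -0.126 and -0.142). Same-numbered arrays had correlations of -0.22 to 0.28, and 1 of 10 arrays correlated best with its own number. With so few pairs this cannot decide whether a shared number marks a common batch. All probe sets in place of 1 per gene gave 38 and 7, and averaging the probe sets of Syn1, Syngr3 or Cnih2 was not run, since each has 1.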
